A study of Mus musculus with 4 samples.

Results

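Epas1 encodes hypoxia-inducible factor 2 alpha, 1 of 3 alpha subunits of the transcription factors through which cells respond to low oxygen. It was examined with 9 other oxygen-sensing genes on arrays of mouse embryonic stem cells depleted of Kdm2b. The set holds the alpha subunits Epas1, Hif1a and Hif3a, their partner Arnt, the prolyl hydroxylases Egln1, Egln2 and Egln3, the ubiquitin ligase subunit Vhl, the asparagine hydroxylase Hif1an and the target gene Vegfa. The probe set of each gene had to carry that symbol alone and, among several, was chosen by the highest mean log2 level over the 4 arrays. All 10 were found among 19938 genes measured this way. Each had 1 such probe set, so mean level decided none of them, and each lay above the median of the table, 8.52 on the log2 scale. Epas1 is in the set because it was already known to be higher on these knockdown arrays, so its values are a description without a test.

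The cells were E14 mouse embryonic stem cells, a line of the inbred 129 strain. There were 2 arrays of control cells and 2 arrays of Kdm2b knockdown cells, hybridised with biotin-labelled total RNA. Both groups were cultured on gelatin, with 15% serum and leukemia inhibitory factor at 1000 units/ml. Both received lentiviral vectors at 10 MOI, with puromycin at 2 µg/ml added 48 h after transduction. What the control vector carried, the targeted sequence in Kdm2b and the oxygen level of the culture were not known here. The title of the series asks whether Kdm2b, a CpG-binding subunit of a Polycomb repressive complex, preserves the stem cell state by bringing that complex to CpG islands. No label tells if the replicates were separate cultures. The p-values therefore reflect the spread between these arrays, which may be technical.

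In oxygen, the Egln enzymes hydroxylate prolines of the alpha subunits, Vhl binds the hydroxylated protein, and it is ubiquitinated and degraded. Hif1an hydroxylates an asparagine that blocks coactivator binding. In low oxygen the alpha subunits persist, pair with Arnt and activate genes of glucose uptake, glycolysis, blood vessel growth and matrix modification, among them Egln3 and Vegfa. Much of this control acts on protein stability, and the arrays measured RNA only.

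The labels were checked on Kdm2b, which was 10.74 and 10.64 on the control arrays against 9.20 and 9.19 on the knockdown arrays in log2 expression. Across probe sets, Pearson r between replicates was 0.9963 in control cells and 0.9966 after knockdown, and array medians ran from 8.49 to 8.55. Of 10 defining embryonic stem cell markers, Pou5f1, Sox2 and Nanog among them, 0 passed the test in either direction, against 12.2% of all genes. An unadjusted p under 0.05 in limma was found for 3 of the 10 markers, beside 5941 of all 19938 genes. The nearest to the threshold was the pluripotency factor gene Klf4, with a log2 fold change of 0.30 (adjusted p = 0.0514, limma). Their mean log2 level was 13.13 on both control arrays, then 13.15 and 13.18 after knockdown. Each probe set was compared with itself between groups, never with another, since probe sets differ in brightness for reasons other than RNA amount.

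Epas1 stood apart between the groups. Its log2 expression was 10.98 and 11.03 on the control arrays (11.01 ± 0.035, SD, n = 2) against 12.41 and 12.45 on the knockdown arrays (12.43 ± 0.028, SD, n = 2). Both knockdown arrays were high and both control arrays low, with no overlap. The difference was 1.43 on the log2 scale (SE 0.062), a level 2.69-fold higher after knockdown, against replicate differences of 0.05 in control and 0.04 in knockdown cells. With each array left out in turn it ran from 1.40 to 1.45. Among all 19938 genes it ranked 9 by size of increase.

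**Figure D1:**
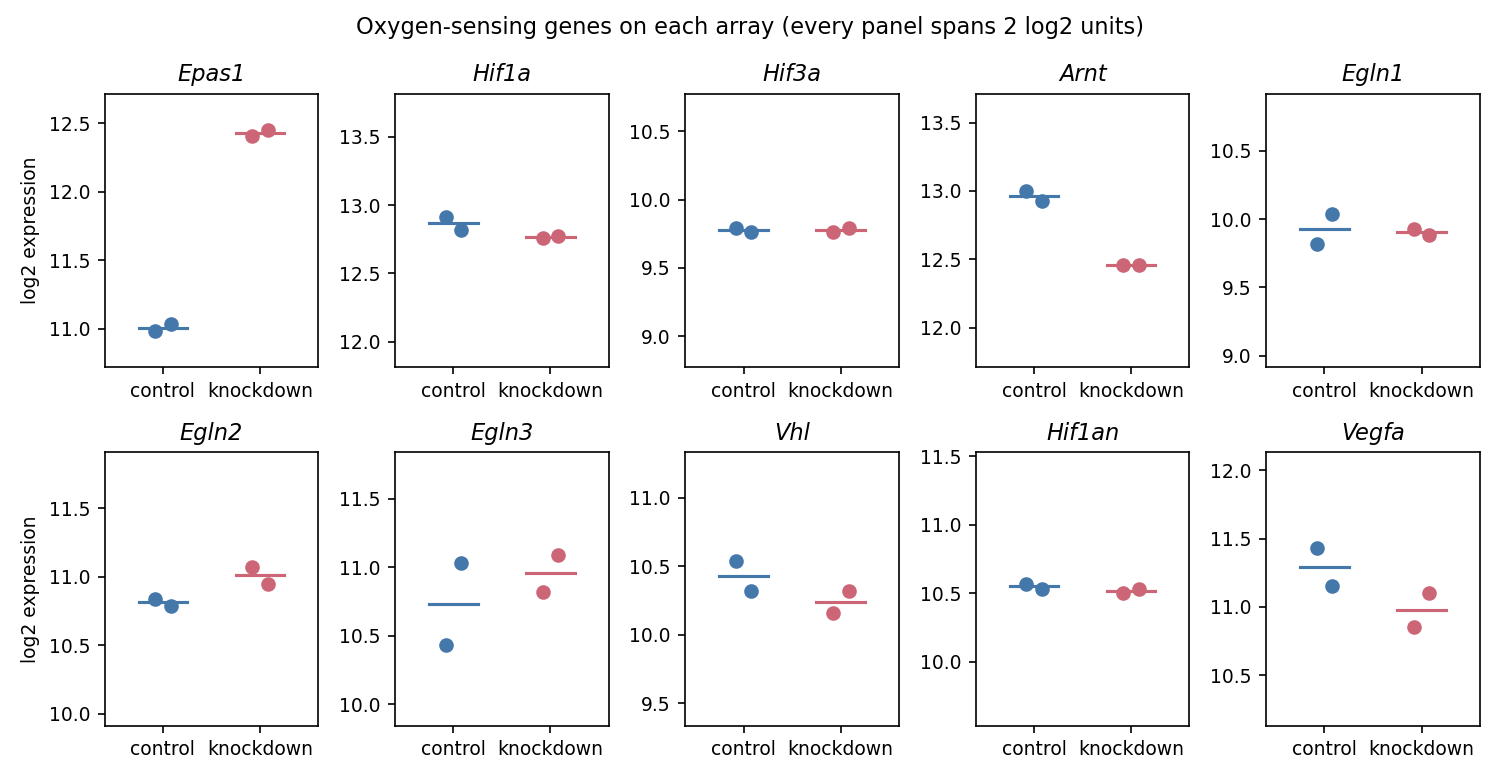
Log2 expression of the 10 oxygen-sensing genes on each array, with control in blue, knockdown in red, 1 point per array and a bar at the group mean of 2 arrays. Every panel spans 2 log2 units, and only Epas1 (11.01 to 12.43) and Arnt (12.97 to 12.46) show groups set far apart against their replicates.

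Epas1 is also known as endothelial PAS domain protein, and markers of other cell types were read beside it. Of 12 endothelial markers 4 were higher, 0 lower and 8 neither, where 5.00% of all genes were higher and 7.19% lower. Of the 12, 4 (Kdr, Flt1, Tek and Tie1) are also on the list of the VEGF family and receptors. Those called, named after their values were seen, were the junction genes Esam (log2 fold change 1.21) and Cdh5 (0.67), the guidance receptor Robo4 (0.97) and the VEGF receptor Kdr (0.36). Tie1, Emcn, Erg, Sox18 and Flt1, named in the same way, had log2 fold changes between -0.06 and 0.07. Their mean levels lay below the median of the table, 8.52, as did those of Cdh5 and Kdr. The changes of all of these are therefore at low signal. The remaining markers were the junction gene Cldn5 (0.145), the angiopoietin receptor Tek (-0.355, with overlapping groups) and the clotting factor gene Vwf (-0.245, adjusted p = 0.0554, limma). The mean level of the 12 markers was 8.22 and 8.24 on the control arrays against 8.47 and 8.46 on the knockdown arrays.

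Of 14 primitive endoderm markers 5 were higher and 0 lower, beside the same 5.00% and 7.19% of all genes. All 14 had a positive log2 fold change, as had 9 of the 12 endothelial markers and 11344 of all 19938 genes. The medians were 0.52, 0.06 and 0.03. Gata6 rose by 2.12, from 10.07 and 10.04 in control to 11.74 and 12.60 in knockdown cells. The mean level of the 14 was 9.60 and 9.38 on the control arrays against 9.99 and 10.32 on the knockdown arrays. Of 12 fibroblast markers 1 was higher and 2 lower, against 5.00% and 7.19% of all genes. Their means were 8.06 and 8.05 on the control arrays against 8.06 and 8.04 on the knockdown arrays. The part of other cell types in the value of Epas1 was not tested. In bulk RNA, more cells of a type and more RNA per cell cannot be told apart.

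The other alpha subunits did not pass the test. Hif1a, the broadly expressed alpha subunit, was 12.91 and 12.82 in control and 12.76 and 12.77 in knockdown cells. The groups did not overlap, but the log2 fold change was -0.10 (95% interval -0.26 to 0.06, adjusted p = 0.354, limma). Hif3a, whose product can act as an inhibitor of the pathway, was 9.79 and 9.76 in control and 9.76 and 9.79 in knockdown cells. The same pair of values appeared in both groups, so the difference was 0 (95% interval -0.15 to 0.15). Since Epas1 is in the set for its known rise, Hif1a and Hif3a were not tested against its value of 1.43.

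Arnt, the shared beta subunit with which each alpha subunit binds DNA, fell. It was 13.00 and 12.93 on the control arrays (12.97 ± 0.049, SD, n = 2) against 12.46 on both knockdown arrays. Both knockdown arrays lay below both control arrays. The log2 fold change was -0.51 (SE 0.063, 95% interval -0.66 to -0.35, adjusted p = 0.0106, limma), a level 1.42-fold lower. Arnt was the only 1 of the 9 genes other than Epas1 to pass the test (0 higher, 1 lower, 8 neither), where 12.2% of all genes passed it, 5.00% higher and 7.19% lower. Groups did not overlap for 4 of the 9, against 58.8% of all genes. The median log2 fold change of the 9 was -0.035, beside 0.03 for all genes.

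The fall of Arnt kept its size without any single array, from -0.54 to -0.47. Its adjusted p was then 0.196 to 0.258 in limma, and no gene of the table passed the test with an array left out. Such a fit rests on 3 arrays. Tested over all 35557 probe sets of the table, named or not, Arnt had an adjusted p of 0.0761 in limma, and 0 probe sets passed, with 7742 at an unadjusted p under 0.05.

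The promoter of Arnt is shown because the series concerns CpG-rich promoters and Arnt was the gene of this set that passed the test. The window is RefSeq's for build GRCm38.p6, plus strand, chr3:95434140-95434439, from 250 bases before to 50 bases after the start, 5′ to 3′ with each CpG in capitals.
Arnt: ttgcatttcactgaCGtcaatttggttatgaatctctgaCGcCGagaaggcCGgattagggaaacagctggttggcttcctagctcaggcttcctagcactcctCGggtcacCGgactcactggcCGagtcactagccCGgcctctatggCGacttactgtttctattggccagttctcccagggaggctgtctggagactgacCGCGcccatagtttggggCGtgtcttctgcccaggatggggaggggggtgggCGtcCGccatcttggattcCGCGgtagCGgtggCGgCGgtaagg
The window holds 19 CpG, a number that 28.1% of all 32851 promoter windows reach or pass. RefSeq windows were matched by symbol for 9 of the 10 genes (11 windows), all but Epas1. They held 4 to 60 CpG, with a median of 19, where the median of all windows was 7. The richest was that of Egln1, with 60 CpG, and the poorest a second window of Egln2, with 4. Neither gene passed the test, and these data hold no measure of Kdm2b binding.

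Of the 4 hydroxylases, which sense oxygen for the alpha subunits, 0 passed limma's test, against 12.2% of all genes. An unadjusted p under 0.05 in limma was found for 1 of the 4 (Egln2), beside 5941 of all 19938 genes. Egln1, the main prolyl hydroxylase in most cells, was 9.82 and 10.04 in control and 9.93 and 9.88 in knockdown cells. Its knockdown values lay between the control values. Its log2 fold change was -0.03 (95% interval -0.24 to 0.19), and it was 0.085 without control replicate 2.

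Egln2, a prolyl hydroxylase found largely in the nucleus, was 10.84 and 10.79 in control and 11.07 and 10.95 in knockdown cells. Both knockdown arrays were the higher, by 0.20 on average (95% interval 0.02 to 0.37), and the adjusted p over all genes was 0.131 in limma. Hif1an was 10.57 and 10.53 in control and 10.50 and 10.53 in knockdown cells, a difference of -0.04 (95% interval -0.19 to 0.12) with a value shared between the groups.

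Egln3, the prolyl hydroxylase that is itself strongly induced by hypoxia, varied most among replicates. It was 10.43 and 11.03 on the control arrays (10.73 ± 0.42, SD, n = 2) against 10.82 and 11.09 on the knockdown arrays (10.96 ± 0.19, SD, n = 2). The groups overlapped, with control replicate 1 the lowest array. The control arrays differed by 0.60, where 95% of all genes differed by at most 0.27. Its log2 fold change of 0.23 (95% interval -0.27 to 0.72, adjusted p = 0.498, limma) became -0.08 if control replicate 1 was left out, and 0.53 if control replicate 2 was.

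Vhl, the substrate-binding subunit of the ligase, was 10.54 and 10.32 in control and 10.16 and 10.32 in knockdown cells. Control replicate 2 and knockdown replicate 2 had the same value, and the log2 fold change was -0.19 (95% interval -0.43 to 0.05, adjusted p = 0.26, limma). It became -0.08 if control replicate 1 was left out, and -0.30 if control replicate 2 was. Vegfa, the angiogenic growth factor and best-known target of the pathway, was 11.43 and 11.15 in control and 10.85 and 11.10 in knockdown cells. Both knockdown arrays lay below both control arrays, though knockdown replicate 2 was within 0.05 of control replicate 2. Its log2 fold change was -0.32 (95% interval -0.62 to -0.01, adjusted p = 0.158, limma), and -0.18 without control replicate 1.

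**Figure D2:**
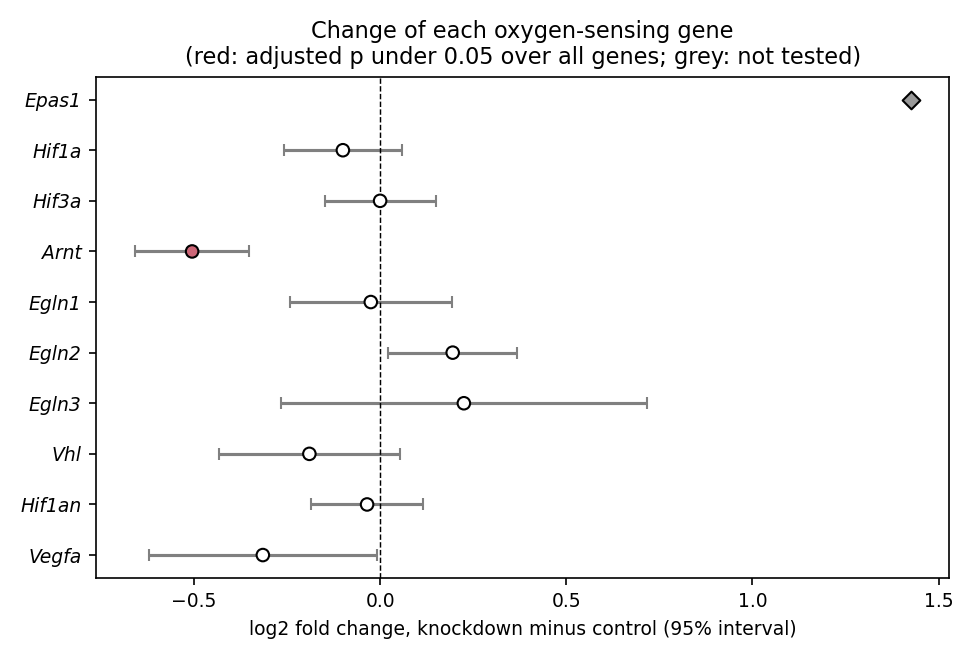
Log2 fold change (knockdown minus control, horizontal axis) of the 10 genes, with limma's 95% interval and red where the adjusted p over all genes was under 0.05. Epas1 is a grey diamond without an interval, since it is given as a description, and lies at 1.43 and Arnt at -0.51, while the other 8 lie between -0.32 and 0.23.

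The hypoxia response element to which the factors bind has the core ACGTG or GCGTG. Both were searched on both strands of the promoter windows. The bases around each ACGTG are shown because the genes of this pathway include its own targets, 5′ to 3′ on the gene's strand in GRCm38.p6, with the match in capitals. A match reads CACGT where it lies on the other strand and CACGTG where both strands match and overlap.
Hif1a, chr12:73907722-73907747: cacagacaagCACGTGagcggggcag
Hif1a, chr12:73907787-73907811: gctgagagcaACGTGggctggggtg
Egln1, chr8:124949308-124949332: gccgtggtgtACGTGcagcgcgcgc
Egln2, chr7:27166836-27166860: cctcctgtcaACGTGcggttcgcgc
Egln2, chr7:27166791-27166816: gggccgctgtCACGTGcccagcgggc
Egln3, chr12:54204089-54204113: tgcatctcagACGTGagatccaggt
Vegfa, chr17:46025360-46025384: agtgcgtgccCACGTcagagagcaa
ACGTG was found in 5 of the 11 windows (45.5%) and in 19.6% of all windows. GCGTG was found in 6 of the 11 and in 32.4% of all windows. Both cores contain a CpG, and the 11 windows had a median of 19 CpG against 7 for all windows. These shares were not matched for CpG content, and its part in them was not tested. The other window of Vegfa, chr17:46032328-46032627, held neither core, and the second window of Egln2 held GCGTG only. The genes with ACGTG in a window (Hif1a, Egln1, Egln2, Egln3 and Vegfa) went in both directions, between -0.32 and 0.23 on the log2 scale. Of these genes 0 passed the test, where 12.2% of all genes passed it. GCGTG lay in windows of Hif3a, Arnt, Egln1, Egln2 and Vegfa, and of those genes only Arnt passed. A match is a run of letters, not a site shown to be bound.

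The rest of the pathway was read from 6 lists with 110 entries, of which 102 were measured, 9 higher, 14 lower and 79 neither. That is 8.82% higher and 13.7% lower, beside 5.00% and 7.19% of all genes, with a median log2 fold change of -0.025. Neither these shares nor those of the single lists were matched for signal level. With genes under 8.52 removed, 1012 of the fewer genes left were higher and 1516 lower.

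**Figure D3:**
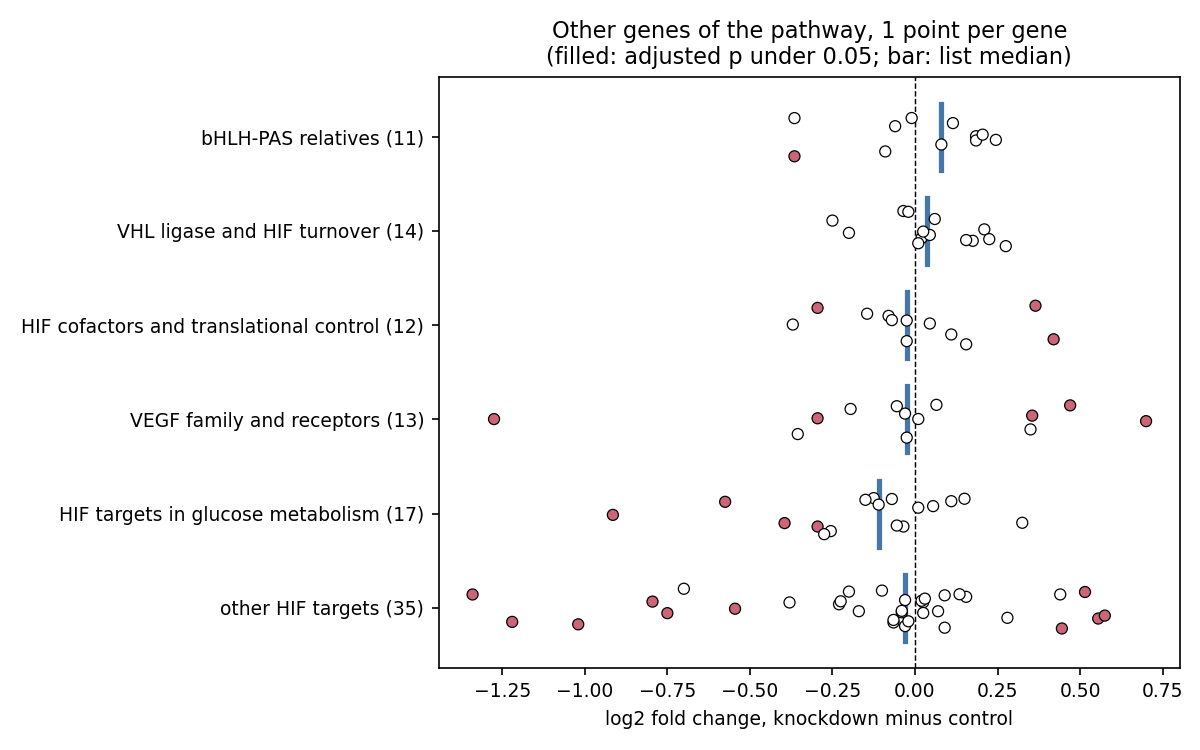
Log2 fold change (knockdown minus control) of each of the 102 pathway genes, 1 point per gene by list, filled where the adjusted p was under 0.05, with a bar at the list's median. The medians run from -0.11 for targets in glucose metabolism to 0.08 for relatives of the alpha subunits, and called genes lie on both sides of 0 for cofactors, for the VEGF family and for other targets.

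Relatives of the alpha subunits and of Arnt, proteins with the same basic helix-loop-helix and PAS domains, gave 1 called gene. Of 11 measured 0 rose, 1 fell and 10 did neither, with a median log2 fold change of 0.08. The 1 that fell is 9.09% of the list, near the 7.19% of all genes that were lower. The 1 called was Ahr, the dioxin receptor, which also pairs with Arnt. It was 9.70 and 9.66 in control and 9.38 and 9.25 in knockdown cells, a fall of 0.37 (SE 0.071, adjusted p = 0.0298, limma). Arnt2, a close homologue of Arnt, was 9.58 and 9.46 in control and 9.76 and 9.65 in knockdown cells. Its log2 fold change of 0.19 (95% interval 0.00 to 0.37) had an adjusted p of 0.171 in limma.

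In a list of genes of the Vhl ligase, of alpha subunit turnover and of related enzymes, 0 of 14 passed the test in either direction, against 12.2% of all genes. An unadjusted p under 0.05 in limma was found for 5 of the 14, beside 5941 of all 19938 genes. The largest changes were those of the ubiquitin ligase Siah1b (log2 fold change 0.28, adjusted p = 0.0669, limma) and the thiol dioxygenase Ado (-0.25, adjusted p = 0.0612, limma). Cul2, the scaffold of the ligase, had a log2 fold change of 0.06 (95% interval -0.11 to 0.23).

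Of 12 cofactors and translational regulators 2 were higher, 1 lower and 9 neither, where 5.00% of all genes were higher and 7.19% lower. Cited2, which competes with the alpha subunits for the coactivators p300 and CBP, was 12.30 and 12.16 in control and 12.67 and 12.63 in knockdown cells, a rise of 0.42 (SE 0.073, adjusted p = 0.0218, limma). Its relative Cited4 rose by 0.37, from 9.41 and 9.42 to 9.77 and 9.79. Mtor, the growth kinase that favours translation of the alpha subunits, fell by 0.30, from 11.54 and 11.49 to 11.25 and 11.19. For all of these the groups did not overlap.

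The VEGF family, the ligands and receptors through which the pathway acts on blood vessels, was split. Of 13 measured 3 were higher, 2 lower and 8 neither, beside 5.00% of all genes higher and 7.19% lower. Vegfc, the lymphatic growth factor, was 9.60 and 9.56 in control and 10.27 and 10.29 in knockdown cells, a rise of 0.70 (SE 0.061, adjusted p = 0.00557, limma). Vegfb, which binds the receptor Flt1, fell by 0.30 (from 11.60 and 11.53 to 11.30 and 11.24).

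The coreceptors of the family also diverged. Nrp2, coreceptor for Vegfc and for semaphorins, was 9.88 and 9.69 in control and 8.48 and 8.54 in knockdown cells, a fall of 1.28 (SE 0.083, adjusted p = 0.0049, limma), 2.42-fold. Its paralogue Nrp1 was 7.24 and 7.40 in control and 7.90 and 7.68 in knockdown cells, a rise of 0.47 (SE 0.099, adjusted p = 0.0359, limma). Kdr, the main signalling receptor of Vegfa, was 7.60 and 7.53 in control and 7.91 and 7.93 in knockdown cells. Flt1 had a log2 fold change of 0.07 (95% interval -0.11 to 0.24). Nrp1, Kdr and Flt1 lay below the median of the table, so their changes are at low signal.

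Among targets of the pathway in glucose metabolism, called genes were lower after knockdown. Of 17 measured 4 fell, 0 rose and 13 did neither, where 7.19% of all genes fell and 5.00% rose. The median log2 fold change of the list was -0.11. Aldoc, an aldolase of glycolysis, was 10.77 and 10.85 in control and 9.86 and 9.93 in knockdown cells, a fall of 0.92 (SE 0.067, adjusted p = 0.00536, limma), 1.89-fold. Slc2a3, a glucose transporter, fell by 0.58 from 13.89 and 13.82 to 13.12 and 13.44. The glycolytic genes Tpi1 (-0.40) and Pfkl (-0.30, adjusted p = 0.0469, and 0.0514 after quantile normalization, limma) fell as well.

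Slc2a1, Ldha and Pdk1, usual readouts of the pathway in this list, did not pass the test, where 12.2% of all genes passed it. In the list, 6 of 17 had an unadjusted p under 0.05 in limma, beside 5941 of all 19938 genes. Slc2a1, the main glucose transporter induced by hypoxia, was 13.68 and 13.92 in control and 13.85 and 13.86 in knockdown cells, with the knockdown values between those of the controls. Ldha, lactate dehydrogenase, had a log2 fold change of -0.11 (95% interval -0.29 to 0.07). Pdk1, a kinase that turns pyruvate away from the mitochondria, had -0.15 (95% interval -0.35 to 0.05). Pgk1, another readout, named after its values were seen, had -0.275 (95% interval -0.45 to -0.10, adjusted p = 0.0639, limma), with groups that did not overlap. Gapdh, Eno1 and Gpi1 of the list were not measured.

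Among 35 other targets of the pathway, 4 rose, 6 fell and 25 did neither, where 5.00% of all genes rose and 7.19% fell. The median log2 fold change of these targets was -0.03. The largest falls were those of Bhlhe40 and Bhlhe41, paired transcriptional repressors that are targets of the pathway and of the circadian clock. Bhlhe40 was 10.58 and 11.09 in control and 9.36 and 9.63 in knockdown cells, a fall of 1.34 (SE 0.18, adjusted p = 0.0122, limma). Bhlhe41 was 8.17 and 8.13 in control and 7.09 and 6.77 in knockdown cells, a fall of 1.22 (SE 0.11, adjusted p = 0.00592, limma), at a mean level below the median of the table.

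The lipoprotein receptor gene Vldlr fell by 1.02, from 9.92 and 9.30 to 8.41 and 8.77, and the cyclin gene Ccng2 by 0.80, from 8.86 and 9.18 to 8.18 and 8.27. The genes that rose were the transferrin receptor Tfrc (0.58, SE 0.099), the collagen lysyl hydroxylase Plod2 (0.56, SE 0.077), the collagen prolyl hydroxylase P4ha2 (0.52, SE 0.069) and the vasoconstrictor peptide gene Edn1 (0.45, SE 0.084). Plod2 was 10.60 and 10.77 in control and 11.24 on both knockdown arrays, and P4ha2 was 9.22 and 9.10 in control and 9.68 and 9.67 in knockdown cells. Edn1 lay below the median of the table.

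Bnip3, a mitophagy receptor and common readout of hypoxia, was 11.84 and 12.39 in control and 11.40 and 11.43 in knockdown cells. Its log2 fold change of -0.70 (95% interval -1.12 to -0.28) had an adjusted p of 0.0521 in limma, and of 0.0282 after arrays were centred on their medians. Its log2 fold change became -0.975 if control replicate 1 was left out, and -0.425 if control replicate 2 was. Over all its alternatives the adjusted p ran from 0.0282 to 0.366. Adm, the peptide adrenomedullin, and Ankrd37 are also strongly induced by hypoxia in many cells. Their log2 fold changes were 0.025 (95% interval -0.14 to 0.19) and 0.09 (95% interval -0.15 to 0.33), at levels below the median of the table, and Adm stood at -0.015 with arrays centred on their median.

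**Figure D4:**
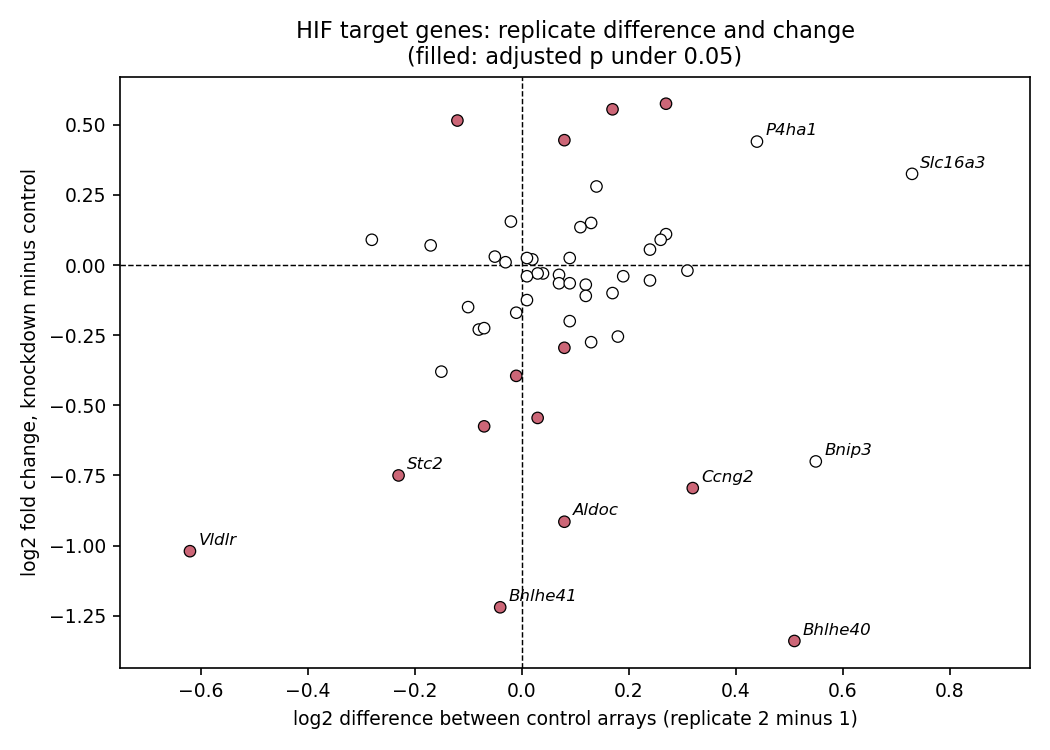
Each of the 52 target genes by the log2 difference between the control arrays (replicate 2 minus 1, horizontal axis) and by the log2 fold change (knockdown minus control, vertical axis), filled where the adjusted p was under 0.05. Egln3 and Vegfa are not in these lists. The 10 called genes that fell reach -1.34 and the 4 that rose reach 0.58, and Slc16a3, Bnip3, Bhlhe40, P4ha1 and Vldlr show the control arrays furthest apart.

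Target genes also differed between the control arrays. The median size of that difference was 0.115 for the 52 targets and 0.08 for all genes, while between the knockdown arrays it was 0.06 and 0.08. Slc16a3, the lactate exporter, was 10.46 and 11.19 on the control arrays against 11.13 and 11.17 on the knockdown arrays, a pattern shared with Egln3, in which control replicate 1 alone was low. P4ha1, Bnip3 and Bhlhe40 were also lower on control replicate 1 than on control replicate 2, whereas Vldlr and Vegfa were higher there. Slc16a3 and P4ha1 were named after their values were seen. Epas1 and Arnt differed by 0.05 and 0.07 between those arrays.

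The genes whose profile over the 4 arrays was most like that of Epas1 were found by the root mean square difference of log2 values, each gene set to its own mean. They were Phlda1 (0.068), the cardiac T-box factor Tbx20 (0.0802), Apobec2 (0.0998), the carboxypeptidase Cpe (0.136) and the D-type cyclin Ccnd2 (0.137). Ccnd2 was 10.63 and 10.65 in control and 11.75 and 11.84 in knockdown cells. Phlda1, the nearest, was 8.36 and 8.32 in control and 9.66 and 9.87 in knockdown cells. The closeness rests on 4 arrays in 2 groups, so any gene with a change of similar size and small replicate spread is close by this measure.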

How the data were processed

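The authors deposited a table of log2 values with 35557 probe sets for 4 Affymetrix MoGene arrays. Affymetrix Expression Console was used, per the submitters' processing notes. For its version, background step, summary method and scaling between arrays, nothing was given in the sources used here. The log2 scale was read from the values (3.12 to 14.74), which are not centred per probe set. The table's direction needs no dye, since each column is 1 array of 1 sample.

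Of the probe sets, 21789 had 1 symbol in the platform annotation, 1621 several and 12147 none, which gave 19938 genes. Groups came from the sample titles. Knockdown was compared with control on the deposited log2 values by limma 3.58.1 in R 4.3.3 (lmFit, eBayes, group only, two-sided, Benjamini-Hochberg over all genes, called at an adjusted p under 0.05). SE and 95% intervals are limma's moderated ones, with 3.9 prior degrees of freedom. Intervals are not adjusted for the number of genes. The number of arrays limits the precision. In simulated data over 19938 genes, the procedure called 0 of 50 genes changed 1.25-fold, 28 of 50 at 1.5-fold and 49 of 50 at 2-fold. It called 4 of 19738 unchanged genes. On the arrays 12.2% of all genes passed the test, so the adjustment was milder there than in the simulation. The simulated rates therefore do not carry over to the arrays, where Pfkl passed at a 1.23-fold change.

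The members and lists were chosen with earlier results of these data known, and lists are described by counts without a set test. The lists have 158 entries, of which 150 were measured, 5 through a RefSeq synonym. Named were the 10 genes, Kdm2b, 10 fixed pathway genes, up to 4 called genes per list and direction or the 2 with the largest changes where none was called, and the 5 genes nearest to Epas1 (predicted genes, clone names, small RNAs and receptor families of smell left out). Alternatives were a replicate block, each array left out, quantile normalization, median centring, removal of genes under 8.52, other probe set rules, other priors and, chosen after seeing the data, a test over all probe sets of the table. Promoter sequences are RefSeq's for GRCm38.p6.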

Additional observations from a re-analysis of the deposited data

How the results depend on the processing

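Without any 1 array, limma called 0 genes (0 to 0 higher, 0 to 0 lower, and 0 to 0 in each of the 6 lists). Between 3495 and 4215 genes then had an unadjusted p under 0.05, and 5941 had one in the fit to 4 arrays. Such fits have fewer arrays. Epas1 then ran from 1.40 to 1.45, and centring on array medians gave 1.385. With replicate number as a block the counts were 0 higher and 0 lower, and 0 in every list. Arnt stood at an adjusted p of 0.127 and Kdm2b at 0.127. The numbers do not pair the samples by any label, and same-numbered arrays deviated together with a correlation of 0.0954. An alternative chosen after seeing the data tested all 35557 probe sets, named or not: limma called 0 (0 higher, 0 lower, 0 in every list), with 7742 at an unadjusted p under 0.05, and Arnt stood at 0.0761 and Kdm2b at 0.0679. Under the other alternatives Arnt ran from -0.55 to -0.49 and stayed called. With arrays centred, the lists of relatives and of ligase and turnover genes had 2 and 1 called. With dim genes removed these had 2 and 2. The VEGF family then had 3, since Nrp1 and Kdr lay below 8.52 and were removed themselves. With an intensity trend in the prior the ligase list had 1. Signs turned for 5 genes that had not passed the test. Adm was -0.0325 after quantile normalization and -0.015 after centring. With arrays left out, Adm ran from -0.02 to 0.07, Egln1 from -0.135 to 0.085, Egln3 from -0.075 to 0.525, Slc2a1 from -0.065 to 0.175 and Ankrd37 from -0.04 to 0.22. The cause of these moves was not tested. In simulation 0 of 50 genes changed 1.25-fold passed the test, under a stricter adjustment than on the arrays, where Pfkl passed at 1.23-fold.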
